A study of Mus musculus with 8 samples.

Results

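The creatine cycle and adenylate kinase genes examined here were Ckb, Ckmt1, Ckmt2, Gatm, Gamt, Slc6a8, Alpl, Ak1 and Ak4. They are 9 of the 23360 genes in the deposited files, and all 9 were found, each as a single row. They were measured by RNA sequencing of inguinal white fat, the subcutaneous fat pad of the mouse groin, at 6 weeks of age. The knockout mice carried a floxed Lsd1 gene and Adipoq-Cre, whose promoter is active in adipocytes, and gave 4 libraries. The controls were Lsd1-floxed mice and also gave 4 libraries, so both groups carry the floxed allele and no group carries Adipoq-Cre alone. The 9 genes were selected on the difference between knockout and control in these same 8 libraries, among genes of known pathways. Their differences and adjusted p-values are therefore a description, and no count of them supports a statement about the pathway.

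Creatine kinases move a phosphate group between ATP and creatine, so that phosphocreatine can hold and carry it. In mouse thermogenic fat a creatine cycle is known in which creatine is phosphorylated and phosphocreatine is then hydrolysed, so that ATP is spent and heat is released. Adenylate kinases interconvert ATP, ADP and AMP, and so act on the AMP level that the kinase AMPK senses. Lsd1, also called Kdm1a, is a histone demethylase.

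The deposited values are read counts multiplied by 1 factor per library, called scaled reads below. Each library summed to between 13999923 and 14369969 scaled reads, from 25670108 to 32441371 recovered reads. Kdm1a averaged 568 ± 15.4 scaled reads in knockout libraries and 729 ± 51.1 in controls (SD, n = 4 each), a log2 fold change of -0.36 (limma, adjusted p = 0.0498), and every knockout library was below every control. The call was lost in 17 of 24 alternative analyses, and the direction held in all 24. Reads from cells that do not use Adipoq-Cre also count towards Kdm1a in whole fat. In such bulk tissue, fewer cells of a type and less RNA per cell cannot be told apart. Adipoq, an adipocyte hormone, ran from 25163 to 31048.5 scaled reads in knockout libraries and from 30754 to 39979 in controls, so the labelled tissue carried its defining marker throughout. The mean log2 level of 16 adipocyte markers was 14.2 to 14.3 in knockout libraries and 14.4 to 14.8 in controls, and these ranges did not overlap. The part of that difference in the members' values was not tested. Knockout replicates 1, 2 and 4 stood apart in genes of skeletal muscle. The summed level of 26 muscle markers was 216458, 200401 and 126115 scaled reads in those libraries, 14994 in knockout replicate 3, and 10660 to 42992 in the 4 controls. None of the 26 muscle markers was at 0 in any library. In a fit with all 8 libraries, 25 of the 25 muscle markers tested had a positive log2 fold change, with a median of 1.86, and 0 of the 25 passed the threshold (limma, adjusted p below 0.05), with 13 at an unadjusted p below 0.05. edgeR and limma-voom called 0 of them and DESeq2 called 7 higher. Over all 14591 genes tested DESeq2 called 492 higher and 284 lower. An unadjusted p below 0.05 was also common over all genes. Slc6a8, at an unadjusted limma p of 0.0355, ranked 1704 by p, so at least that many genes were below 0.05. The same holds for the counts of other gene lists given below, and nothing is read from them. Members whose values followed these markers are given below with knockout replicate 3 alone and with the muscle marker level as a covariate. Each marker covariate was the mean log2 level of its list, and was not the summed level. For muscle it was 11.1, 10.9, 7.87 and 11.1 in knockout replicates 1 to 4 and 7.63 to 8.94 in controls. Of the knockout libraries only replicate 3 lay in the control range, so the covariate nearly follows genotype. The covariate fit therefore leans on replicate 3, and the 2 fits are not separate checks. Nothing in the labels says whether the 4 libraries of a group came from separate mice, so p-values measure only the spread between these libraries, which may be technical.

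Ckb, Ak1 and Ak4 were the 3 members called higher in the knockout, and their promoters are printed here because the main values concern them. Each is the 250 bases before a RefSeq start site in GRCm38.p6, read 5′ to 3′ on the gene's strand, and the window nearest to the start of the counted transcript was taken. Capitals mark exact matches, on either strand, to the TATA box TATAAA, the CCAAT box CCAAT, the GC box GGGCGG, the half-site AAGGTCA read by estrogen-related receptors, or the hypoxia element core ACGTG.
Ckb chr12:111672339-111672588, minus strand: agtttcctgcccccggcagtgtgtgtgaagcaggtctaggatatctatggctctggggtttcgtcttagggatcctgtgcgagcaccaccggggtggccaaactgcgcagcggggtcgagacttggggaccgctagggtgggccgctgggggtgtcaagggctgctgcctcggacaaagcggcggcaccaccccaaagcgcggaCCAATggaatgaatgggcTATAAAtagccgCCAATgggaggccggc
Ak1 chr2:32629250-32629499, plus strand: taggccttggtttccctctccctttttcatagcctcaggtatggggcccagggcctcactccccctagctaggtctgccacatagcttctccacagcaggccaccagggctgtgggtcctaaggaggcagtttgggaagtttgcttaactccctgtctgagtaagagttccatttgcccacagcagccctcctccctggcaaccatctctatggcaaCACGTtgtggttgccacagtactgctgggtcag
Ak4 chr4:101419039-101419288, plus strand: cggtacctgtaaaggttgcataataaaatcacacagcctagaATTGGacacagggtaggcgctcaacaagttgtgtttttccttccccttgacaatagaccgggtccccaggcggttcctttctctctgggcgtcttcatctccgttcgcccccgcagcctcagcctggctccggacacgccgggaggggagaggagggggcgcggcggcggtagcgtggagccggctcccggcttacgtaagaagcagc
In Ckb, TATAAA lay from position -28 to -23 relative to the start, and CCAAT lay from -46 to -42 and from -16 to -12. In Ak1, ACGTG was read on the opposite strand (CACGT as printed) from -33 to -29. In Ak4, CCAAT was read on the opposite strand (ATTGG as printed) from -208 to -204. None of these matches overlapped another. The 3 windows shared no motif except CCAAT, found in Ckb and Ak4, and no GGGCGG or AAGGTCA stood in any of them. Of 32851 windows of this length in the RefSeq promoter table, 12.4% held TATAAA, 33.9% CCAAT, 32.7% GGGCGG, 4.08% AAGGTCA and 16.6% ACGTG. The table lists 4 start windows for each of Ak1 and Ak4, and the library values do not say which start was used. A window of Ak1 that is not printed held AAGGTCA from -90 to -84. A further window of Ak4 held GGGCGG and ACGTG, so the motifs depend on the start taken.

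Of the 9 members, 8 had at least 10 scaled reads in at least 4 libraries and were tested, and Ckmt1 was not. A gene could pass this filter through the knockout libraries alone. All 8 tested members had a positive log2 fold change and 3 were called higher (limma, adjusted p below 0.05 over 14591 genes), beside 1.28% of all genes called higher, 0.356% called lower and 1.64% called in either direction. Every knockout library was above every control for 4 tested members, beside 5.06% of all genes above and 3.58% below. The median log2 fold change was 0.64 over the 8 tested members and 0.02 over all genes tested. Since this contrast chose the members, nothing is read from these shares. Fold changes are of log2(value + 1), which understates the change of genes with low values.

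**Figure D1:**
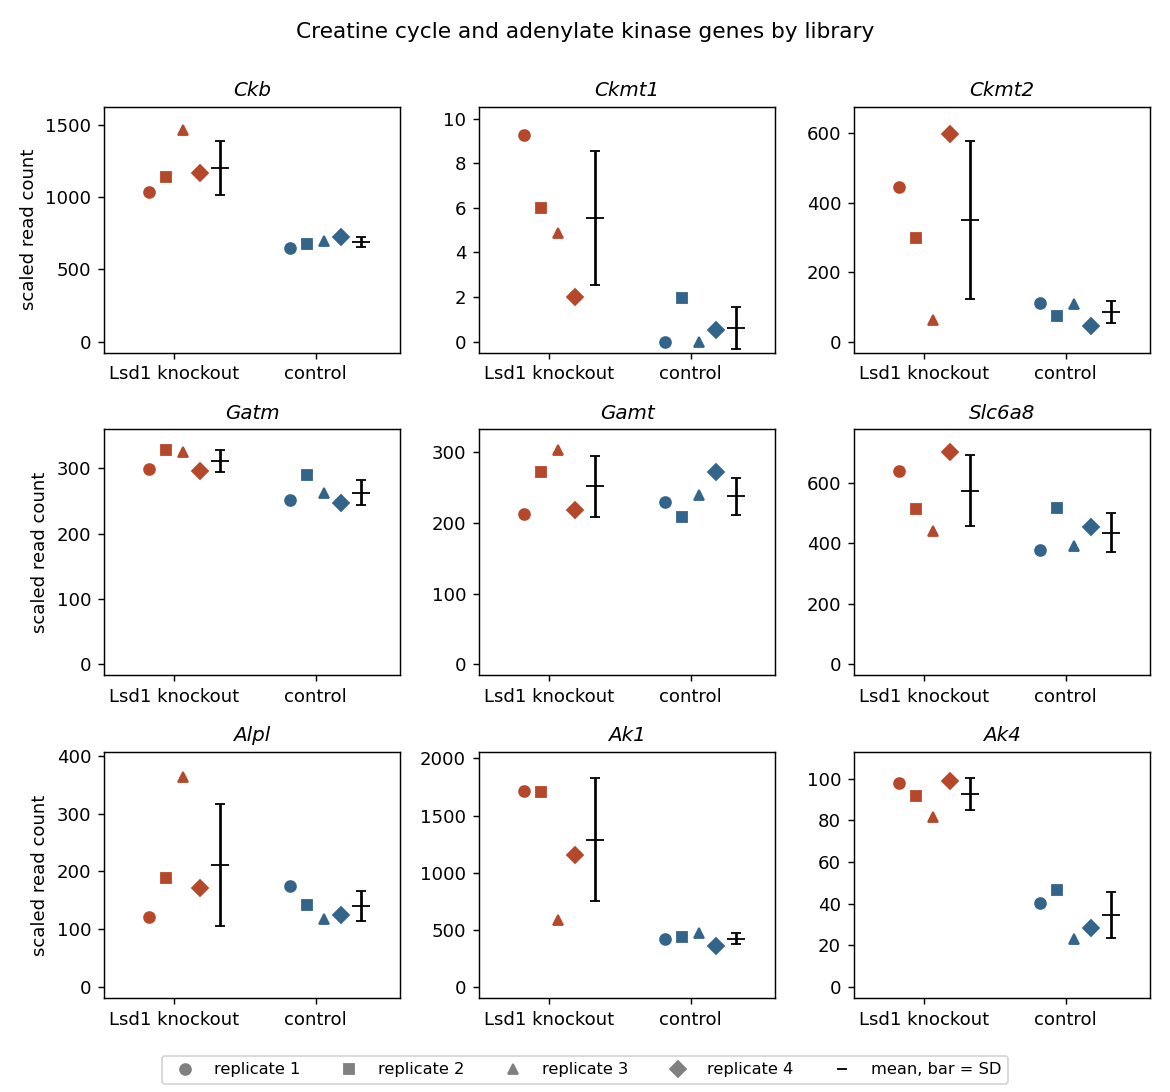
Scaled read count (y axes, linear, each gene on its own scale) of the 9 members in the 4 Lsd1 knockout libraries, at the left of each panel, and the 4 control libraries. Points are libraries, with the replicate shown by shape, and bars are mean ± SD. All 4 knockout points lie above all 4 control points for Ckb, Gatm, Ak1 and Ak4. For Ckmt1 the lowest knockout library, at 2.00, is level with the highest control, at 1.97.

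Ckb encodes the cytosolic brain-type creatine kinase, which is the main cytosolic creatine kinase outside muscle and acts in the creatine cycle of thermogenic mouse fat. It lies at chr12:111669355-111672338 (GRCm38.p6), and none of its exons overlaps another gene's in GENCODE M21. Ckb had 1035, 1139.6, 1464 and 1170.3 scaled reads in knockout replicates 1 to 4, against 648, 677, 699 and 728 in control replicates 1 to 4. The lowest knockout library was thus well above the highest control, and the highest value was in knockout replicate 3, the knockout library with the least muscle RNA. The means were 1202 ± 184 scaled reads in the knockout and 688 ± 33.6 in controls (SD, n = 4 each), a ratio of 1.75. Its log2 fold change was 0.79 (SE 0.106, 95% interval 0.56 to 1.03; limma, adjusted p = 0.00632). With the muscle marker level as a covariate it was 1.01 (limma, adjusted p = 0.00284). With replicate 3, where Ckb was highest, as the only knockout library it was 1.09. The call was lost in 1 of 24 alternatives, without control replicates 1 and 2, where the log2 fold change was 0.74 (limma, adjusted p = 0.0776). Ucp1, the uncoupling protein of brown and beige fat cells, had 167, 1369.8, 4732 and 447 scaled reads in knockout replicates 1 to 4, and 3189, 1639, 384 and 756 in control replicates 1 to 4, and so was also highest in knockout replicate 3. Of 16 brown and beige markers, 5 were highest in that library and 6 in control replicate 2. Their summed level was 10920.5 to 21545 scaled reads in knockout libraries and 7939 to 18779 in controls, none at 0. With the mean log2 level of these 16 markers as a covariate, the log2 fold change of Ckb was 0.80 (limma, adjusted p = 0.00845).

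The mitochondrial creatine kinases sit between the mitochondrial membranes, where they charge creatine with newly exported ATP. Ckmt2, the sarcomeric isoform of heart and skeletal muscle, which has also been described in thermogenic fat, lies at chr13:91853386-91876923. Ckmt2 had 444, 299, 63.2 and 598 scaled reads in knockout replicates 1 to 4, against 111, 75.2, 108 and 44.9 in control replicates 1 to 4. Knockout replicates 1, 2 and 4 were above all controls, while replicate 3 was below 3 of the 4, so the groups overlapped. The means were 351 ± 228 scaled reads in the knockout and 84.9 ± 31.3 in controls (SD, n = 4 each). The log2 fold change of 1.73 (SE 0.616, 95% interval 0.35 to 3.10) did not pass the threshold (limma, adjusted p = 0.239). This gene moved with the muscle markers. Acta1, the actin of skeletal muscle fibres, had 45249, 38179, 2986 and 27678 scaled reads in knockout replicates 1 to 4, and 6567, 6347, 8632 and 1982 in control replicates 1 to 4. Myh7, the slow-fibre myosin heavy chain, had 75.8, 38.1, 3.54 and 509 in knockout replicates 1 to 4, and 5.37, 3.44, 3.92 and 38.2 in control replicates 1 to 4. Knockout replicate 4 was thus highest for Myh7 and for Ckmt2, and replicate 1 for Acta1. With the muscle marker covariate the log2 fold change of Ckmt2 was 0.16 (limma, adjusted p = 0.732). With replicate 3 as the only knockout library it was -0.33. Without replicate 3 it was 2.41 (adjusted p = 0.00857), and DESeq2 gave 2.02 (adjusted p = 0.0396). Its exons share 84 bases with an antisense RNA, 1700119I11Rik, whose reads cannot be separated unless counting used strand.

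Ckmt1, the ubiquitous mitochondrial isoform, at chr2:121357773-121363737, was near the limit of detection. It had 17, 11, 11 and 4 recovered reads in knockout replicates 1 to 4 and 0, 4, 0 and 1 in control replicates 1 to 4, which are 9.27, 5.99, 4.87 and 2.00 scaled reads in the knockout and 0, 1.97, 0 and 0.52 in controls. A count of 0 allows up to 3 reads, or 1.46 and 1.47 scaled reads in control replicates 1 and 3. Of the knockout libraries, 3 were above every control, and replicate 4 was level with control replicate 2. When all genes with any reads were fitted without the filter, its log2 fold change was 2.03 (limma, adjusted p = 0.0978), which depends on the added pseudocount at this depth. Its exons overlap those of Strc by 10 bases.

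Creatine is made in a pair of steps. Gatm, at chr2:122594473-122611277, encodes the mitochondrial amidinotransferase that makes guanidinoacetate from arginine and glycine, and it is the first enzyme of the route. Gatm had 299, 328, 325 and 296 scaled reads in knockout replicates 1 to 4, against 252, 290.4, 262 and 247 in control replicates 1 to 4. The groups did not overlap, but the gap between the lowest knockout and the highest control was small. The means were 312 ± 16.8 scaled reads in the knockout and 263 ± 19.3 in controls (SD, n = 4 each). This gave a log2 fold change of 0.25 (95% interval 0.04 to 0.45; limma, adjusted p = 0.250), positive and not called in any of 24 alternatives, where it ranged from 0.22 to 0.31. Gamt, at chr10:80258151-80261025, encodes the methyltransferase that turns guanidinoacetate into creatine. Gamt had 213, 273, 303 and 219 scaled reads in knockout replicates 1 to 4, against 230.4, 208, 239.9 and 272 in control replicates 1 to 4. The groups were interleaved. The means were 252 ± 43.4 scaled reads in the knockout and 238 ± 26.3 in controls (SD, n = 4 each), a log2 fold change of 0.07 (95% interval -0.24 to 0.39; limma, adjusted p = 0.850), and its sign turned in 3 of 24 alternatives.

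Slc6a8, at chrX:73673133-73682502, encodes the plasma membrane creatine transporter through which cells take up creatine from blood. Slc6a8 had 640.2, 514, 441 and 703 scaled reads in knockout replicates 1 to 4, against 379, 518, 392 and 455 in control replicates 1 to 4. Knockout replicates 1 and 4 exceeded every control, and replicates 2 and 3 lay within the control range. The means were 575 ± 119 scaled reads in the knockout and 436 ± 64.0 in controls (SD, n = 4 each). The difference on the log2 scale was 0.39 (95% interval 0.03 to 0.74; limma, adjusted p = 0.304). It was 0.17 with the muscle marker covariate (limma, adjusted p = 0.624) and 0.03 with replicate 3 as the only knockout library.

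Alpl, at chr4:137741731-137796384, encodes tissue-nonspecific alkaline phosphatase, which in mouse thermogenic fat has been described as the enzyme that hydrolyses phosphocreatine. Alpl had 121, 188, 363 and 171 scaled reads in knockout replicates 1 to 4, against 175, 142, 118 and 124 in control replicates 1 to 4. The groups overlapped, knockout replicate 1 was near the lowest control, and knockout replicate 3 was the highest of the 8 libraries. The means were 211 ± 106 scaled reads in the knockout and 140.0 ± 25.5 in controls (SD, n = 4 each), with a log2 fold change of 0.48 (95% interval -0.17 to 1.13; limma, adjusted p = 0.496). Without knockout replicate 3 the log2 fold change was 0.18 (limma, adjusted p = 0.741), and with it as the only knockout library 1.39. With the muscle covariate it was 1.06 (limma, adjusted p = 0.0764). Neutrophils also express Alpl, and the neutrophil gene S100a8 had 15.8, 40.8, 110.1 and 66.4 scaled reads in knockout replicates 1 to 4 and 56.6, 16.7, 63.2 and 33.0 in control replicates 1 to 4. S100a8, taken up after its values were seen, was highest in knockout replicate 3. It was 1 of 4 among the 11 neutrophil and macrophage markers that were highest there, with S100a9, Ngp and Retnlg. The neutrophil receptor Csf3r was lowest there, at 129 scaled reads. Over these 11 markers the summed level was 16910.4 to 21133 scaled reads in knockout libraries and 13352 to 17174 in controls. Most of that sum was Lyz2, at 12208.5 to 15468 in knockout libraries and 9307 to 12810 in controls, so it does not show the neutrophil genes apart. The part of these 11 markers in the Alpl values was not tested.

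Ak1, at chr2:32621758-32635058, encodes the cytosolic adenylate kinase, which is abundant in skeletal muscle. Ak1 had 1713, 1709, 584 and 1155 scaled reads in knockout replicates 1 to 4, against 416, 438, 475 and 363 in control replicates 1 to 4. Every knockout library was above every control, but replicate 3 was much closer to the controls than the other three were. The means were 1290.3 ± 539 scaled reads in the knockout and 423 ± 47.2 in controls (SD, n = 4 each), a ratio of 3.05. The log2 fold change was 1.49 (SE 0.300, 95% interval 0.82 to 2.16; limma, adjusted p = 0.0422). It was 0.78 with the muscle marker covariate (limma, adjusted p = 0.0657) and 0.47 with replicate 3 as the only knockout library. The call was lost in 14 of 24 alternatives, among them 7 of the 8 that left out 1 library, and the sign held in all. Krt5, a keratin of basal epithelium taken up after its values were seen, had 237 and 82.2 scaled reads in knockout replicates 1 and 2, the libraries with the most Ak1, and at most 0.49 in the other libraries, being at 0 in 5 of them. Of 18 mammary epithelial markers, 9 were highest in knockout replicate 1 and 1 in knockout replicate 2, and 5 had both of their 2 highest levels there. Knockout replicates 3 and 4 were each highest for 1 marker. Control replicates 1, 2 and 3 were highest for 1, 2 and 2 markers, among them Epcam, Krt7 and Ehf, and Wap was at 0 in all 8 libraries. The summed level of the 18 markers was 224 to 814 scaled reads in knockout libraries and 213 to 279 in controls. With the mean log2 level of these 18 markers as a covariate, the log2 fold change of Ak1 was 1.13 (limma, adjusted p = 0.0785). Without knockout replicate 3 it was 1.83 (limma, adjusted p = 0.00113).

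Ak4, at chr4:101416478-101467771, encodes an adenylate kinase of the mitochondrial matrix. Ak4 had 98.2, 92.0, 81.8 and 98.8 scaled reads in knockout replicates 1 to 4, against 40.5, 46.7, 23.0 and 28.4 in control replicates 1 to 4. The lowest knockout library was well above the highest control, and the 4 knockout libraries were close to each other, replicate 3 included. The means were 92.7 ± 7.88 scaled reads in the knockout and 34.6 ± 10.9 in controls (SD, n = 4 each), a ratio of 2.68. The log2 fold change was 1.44 (SE 0.223, 95% interval 0.94 to 1.94; limma, adjusted p = 0.0126). It was 1.31 with the muscle marker covariate (limma, adjusted p = 0.0606) and 1.27 with replicate 3 as the only knockout library. Both fits lost the call while the size stayed within the interval. The call was also lost without knockout replicate 2 (log2 fold change 1.45, adjusted p = 0.0569) and without knockout replicate 4 (1.41, adjusted p = 0.0645), and it held in the other 20 of 24 alternatives.

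**Figure D2:**
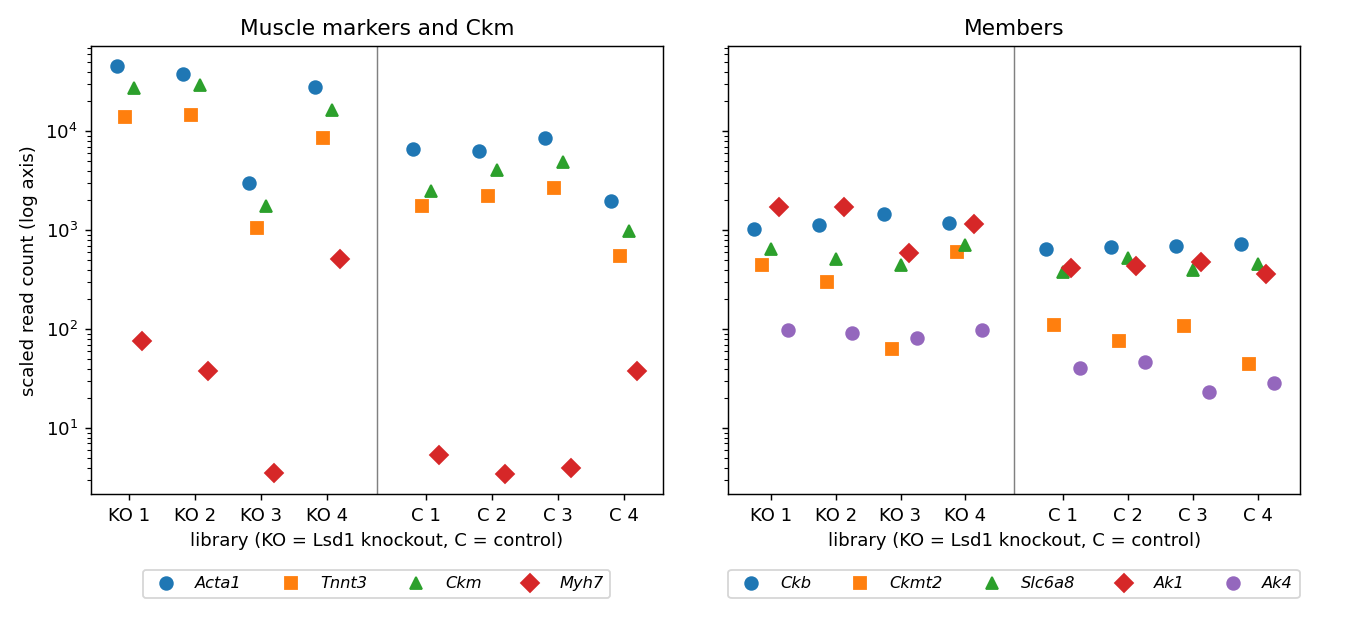
Scaled read count (log y axis) in each library (x axis; KO, Lsd1 knockout; C, control) of the muscle markers Acta1, Tnnt3 and Myh7 with Ckm at the left, and of 5 members at the right. Acta1, Tnnt3 and Ckm are high in KO 1, 2 and 4 and low in KO 3, a pattern also seen for Ckmt2 and in part for Ak1, while Ckb is highest in KO 3 and Ak4 is level over the 4 knockout libraries.

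**Figure D3:**
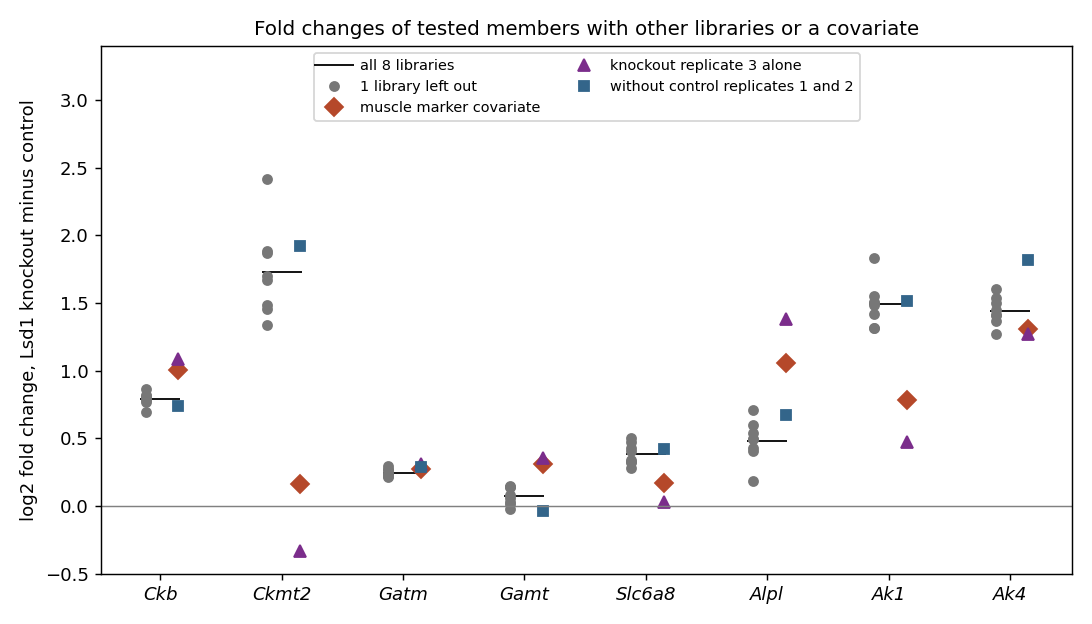
Log2 fold change of each tested member, Lsd1 knockout minus control (y axis), with all 8 libraries (line), with 1 library left out (grey circles), with a muscle marker covariate, with knockout replicate 3 as the only knockout library, and without control replicates 1 and 2. Ckb stays between 0.70 and 1.09 across these fits, Ckmt2 runs from -0.33 to 2.41, and Alpl and Ak1 move in opposite directions with knockout replicate 3 alone.

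Levels of different isoforms were compared per kilobase of the counted transcript. Ckm, the muscle creatine kinase, which is no member, had the highest level of the creatine kinases in 6 of the 8 libraries. It had 10006, 10579.7, 643 and 6009.7 scaled reads per kb in knockout replicates 1 to 4, and 901, 1463, 1766 and 361 per kb in control replicates 1 to 4. Ckb exceeded it per kb in knockout replicate 3, with 995 per kb, and in control replicate 4, with 494 per kb, which were the libraries with the lowest muscle marker sums of their groups. Ckm itself had a log2 fold change of 2.23 (limma, adjusted p = 0.270). It was 0.08 with the muscle covariate (limma, adjusted p = 0.921) and -0.57 with replicate 3 as the only knockout library. Its exons share 451 bases with an antisense RNA, A930016O22Rik.

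Leaving Ckm out, the other creatine kinase transcripts together averaged 1056 ± 98.1 scaled reads per kb in the knockout and 525 ± 16.1 per kb in controls (SD, n = 4 each). Ckb made up 69.8, 79.1, 95.6 and 66.3% of that sum in knockout replicates 1 to 4, and 85.5, 89.9, 86.7 and 94.2% in control replicates 1 to 4. The rest was almost wholly Ckmt2, at 29.7, 20.5, 4.09 and 33.6% in knockout replicates 1 to 4 and 14.5, 9.89, 13.3 and 5.75% in control replicates 1 to 4. Knockout replicate 3 therefore had the highest Ckb share and the lowest Ckmt2 share of the 8 libraries. Ckmt1 was below 1% of the sum in every library. In level per kb the order in controls was Ckb at 467 ± 22.9, Gamt at 240.5 ± 26.7, Ak1 at 208 ± 23.2, Gatm at 110.1 ± 8.10, Slc6a8 at 110.0 ± 16.1, Ckmt2 at 57.1 ± 21.1, Alpl at 55.5 ± 10.1, Ak4 at 8.28 ± 2.60 and Ckmt1 at 0.384 ± 0.575 (SD, n = 4). Of the neighbours in this order, Gamt and Ak1, Gatm and Slc6a8, and Ckmt2 and Alpl had overlapping libraries. In the knockout the order was Ckb at 817 ± 125, Ak1 at 634 ± 265, Gamt at 255 ± 43.9, Ckmt2 at 236 ± 153, Slc6a8 at 145 ± 29.9, Gatm at 131 ± 7.03, Alpl at 83.5 ± 41.9, Ak4 at 22.1 ± 1.88 and Ckmt1 at 3.42 ± 1.86 (SD, n = 4). There each gene from Ckb down to Alpl overlapped the next in its library values, while Alpl, Ak4 and Ckmt1 were separate from each other.

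**Figure D4:**
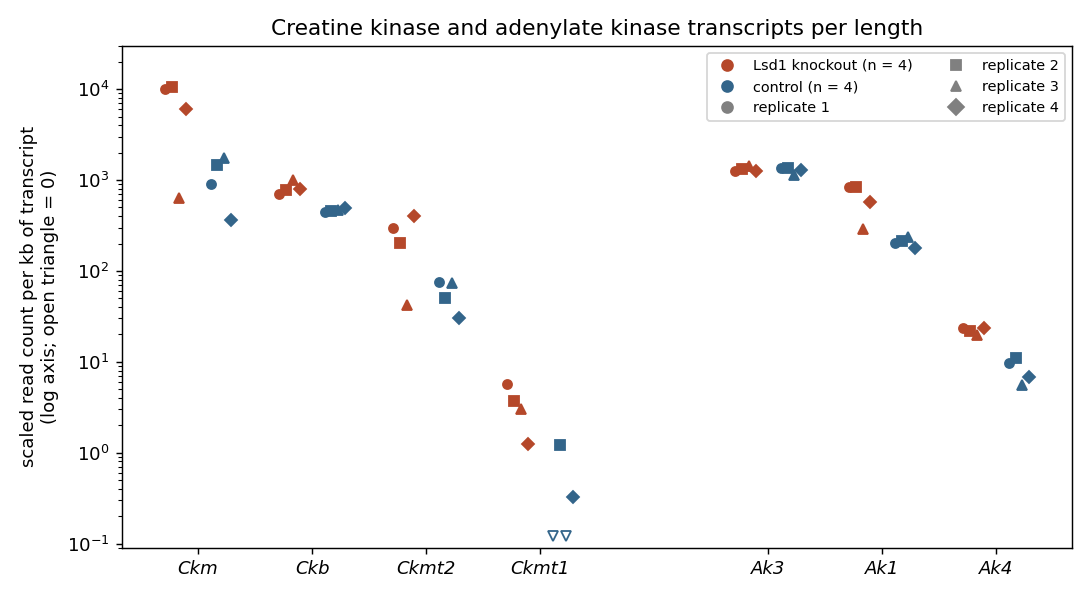
Scaled read count per kilobase of the counted transcript (log y axis) for 4 creatine kinase and 3 adenylate kinase genes (x axis), Lsd1 knockout at the left of each gene and control at the right, each point 1 library and its shape the replicate. Ckm spans 643 to 10579.7 per kb among knockout libraries, and Ak4 is the lowest of the 3 adenylate kinases drawn in all 8 libraries.

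Ak3, the GTP-using adenylate kinase of the mitochondrial matrix, averaged 3701 ± 218 scaled reads in the knockout and 3615 ± 280.4 in controls (SD, n = 4 each). Its log2 fold change was 0.04 (95% interval -0.15 to 0.22; limma, adjusted p = 0.884), and its sign turned in 2 of 24 alternatives. Its exons overlap those of Cdc37l1 by 430 bases. Per kb Ak3 stood at 1318 ± 77.5 in the knockout and 1287 ± 99.8 in controls (SD, n = 4 each), above Ak1 and Ak4 in all 8 libraries.

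**Figure D5:**
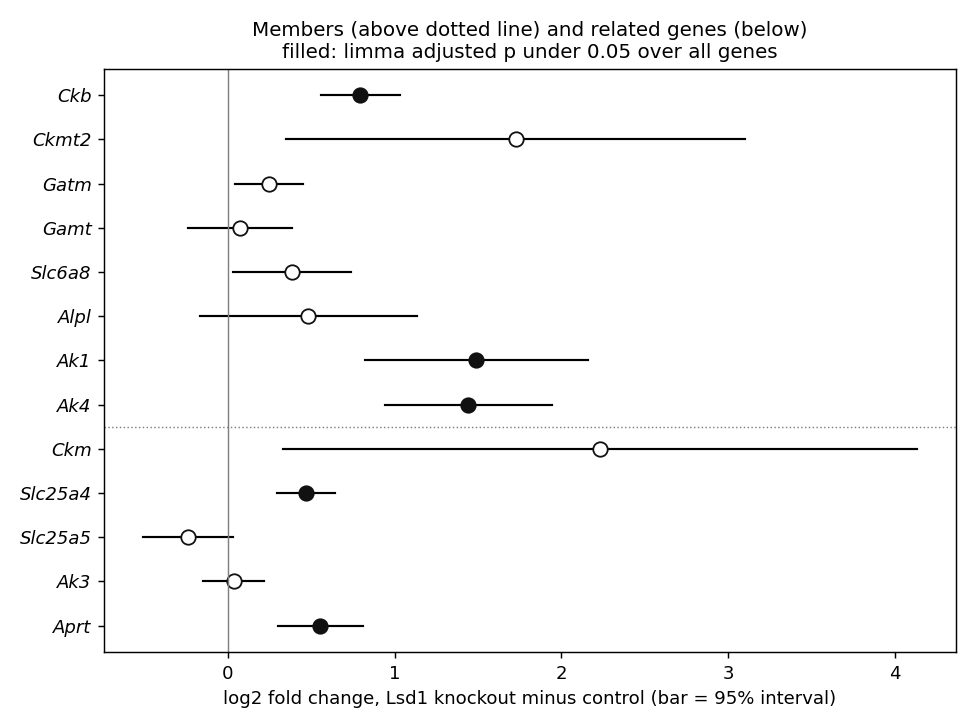
Log2 fold change of scaled reads, Lsd1 knockout minus control (x axis), with its 95% interval, for the 8 tested members (above the dotted line) and 5 related genes (below it). Filled points passed the limma threshold over all genes, which were Ckb, Ak1 and Ak4 among the members and Slc25a4 and Aprt among the others, each on the positive side.

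The partners of creatine kinase include the adenine nucleotide carriers, which exchange mitochondrial ATP for cytosolic ADP. Slc25a4, the carrier isoform most abundant in heart and muscle, had 5434, 5631, 5112 and 5546 scaled reads in knockout replicates 1 to 4, against 3918, 4327, 3839.7 and 3643 in control replicates 1 to 4. The groups did not overlap, and knockout replicate 3 was only slightly below the other knockout libraries. Its log2 fold change was 0.47 (SE 0.0779; limma, adjusted p = 0.0186), with 0.39 under the muscle covariate (adjusted p = 0.0716), and the call was lost in 7 of 24 alternatives. The related carrier Slc25a5 averaged 3645 ± 614 scaled reads in the knockout and 4270.3 ± 360.1 in controls (SD, n = 4 each), a log2 fold change of -0.24 (limma, adjusted p = 0.408). Of 9 phosphagen partner genes tested, 1 was called higher and 0 were called lower by limma, with 2 higher and 0 lower at an unadjusted p below 0.05, and their log2 fold changes had a median of 0.07. edgeR and limma-voom also called 1 higher and 0 lower, and DESeq2 2 higher and 0 lower. The second DESeq2 call was Ckm (adjusted p = 0.0398), whose values followed the muscle markers. The remaining 8 were Ckm, Slc25a5, the phosphate carrier Slc25a3, the 3 outer membrane channels Vdac1, Vdac2 and Vdac3, the transporter Slc16a12, and the phosphatase Phospho1.

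The genes that supply creatine synthesis with arginine, glycine and methyl groups gave 0 calls of 19 tested in either direction, with a median log2 fold change of 0.03. By limma, edgeR, DESeq2 and limma-voom alike 0 of the 19 were called, and 0 had an unadjusted p below 0.05. The largest fold change among them was that of Ass1, argininosuccinate synthase, at 0.34 (limma, adjusted p = 0.533), with 22.7 ± 3.30 scaled reads in the knockout and 17.9 ± 3.51 in controls (SD, n = 4 each). Among 28 tested genes of adenine nucleotide metabolism, 1 was called higher and 0 were called lower by limma, with 6 higher and 2 lower at an unadjusted p below 0.05, and the median of their log2 fold changes was 0.08. edgeR and limma-voom called 0 of the 28. DESeq2 called 2 higher and 2 lower, beside 492 higher and 284 lower over all 14591 genes. The called gene was Aprt, the phosphoribosyltransferase that makes AMP from free adenine. Aprt had 530.1, 565, 740.0 and 661 scaled reads in knockout replicates 1 to 4, against 399, 426, 400.0 and 461 in control replicates 1 to 4. Every knockout library was above every control, with replicate 3 the highest. Its log2 fold change was 0.56 (SE 0.114; limma, adjusted p = 0.0463), it was 0.75 with the muscle covariate (adjusted p = 0.0181), and the call was lost in 14 of 24 alternatives.

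Among 14 subunits of AMPK and kinases upstream of it, limma, edgeR and limma-voom called 0 and DESeq2 called 1 higher. The median log2 fold change was -0.0049, and 1 gene had an unadjusted p below 0.05 in limma. The largest fold change was that of Prkag3, the AMPK gamma subunit of skeletal muscle. Prkag3 had 230.1, 215.5, 42.0 and 117 scaled reads in knockout replicates 1 to 4, against 18.6, 46.7, 35.2 and 29.9 in control replicates 1 to 4. Knockout replicates 1, 2 and 4 were above all controls and replicate 3 was below 1 of them, and the same 3 knockout libraries were above all controls for Acta1. Its log2 fold change was 1.98 (limma, adjusted p = 0.102) and 0.98 with the muscle covariate (limma, adjusted p = 0.257). It was 0.43 with replicate 3 as the only knockout library and 2.50 without replicate 3 (limma, adjusted p = 0.00725).

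Variation among libraries of 1 genotype was described by the genes whose deviations from the genotype means were most like each member's, over the 8 libraries and all tested genes. For Ckb they were Sdr39u1 (Pearson r = 0.993) and Nkx6-2 (0.988), and for Ckmt2 they were Tnfaip2 (0.991) and Mosmo (0.975). For Gatm they were Enoph1 (0.983) and Hgsnat (0.981), for Gamt Pfkp (0.984) and Rflnb (0.978), and for Slc6a8 Rdh9 (0.990) and Sarm1 (0.989). For Alpl they were Timm9 and Rab5c (0.990 each). For Ak1 the most alike named gene was Ank1, the erythroid and muscle ankyrin (0.985), and for Ak4 they were Atp2a2, the calcium pump of slow muscle and most other cells (0.980), and Ogdh, a subunit of a mitochondrial dehydrogenase (0.971). These values are the extremes of 14591 genes over few libraries that differ in depth and muscle content, so they describe the libraries and were given no test.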

How the data were processed

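Per the submitters' processing notes and the design text, the tools were TopHat2 version 2 (mm10), HOMER for counting, and edgeR and DESeq. The authors deposited a signal per RefSeq accession, 23373 rows a library. The annotation, strand setting and scaling are not stated there. In each library 99.9 to 100% of values above 0 were whole multiples of 1 step (0.442 to 0.545, tolerance 0.02 of a step beside rounding), so they are read counts times 1 factor, and dividing by the step recovered the reads. Of recovered counts up to 40, 54.0 to 56.2% were even. A step may be 1 end of a read pair, which was not tested. Recovered reads, those of Ckmt1 included, may then count a fragment more than 1 time. Floors cover counting error only. Accessions were named with RefSeq GRCm38.p6 (22527) and GENCODE M21 (124), 721 stayed unnamed, and 1 blank row at 0 was left out. For 12 symbols with 2 rows the higher was kept.

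Genotype was the only term in limma 3.58.1 (trend on, log2 of value + 1, 14591 genes with at least 10 in at least 4 libraries, Benjamini-Hochberg adjustment), a fit tested on simulated data. The 24 alternatives used edgeR 4.0.16 (218 genes called on recovered reads, 216 on halved reads), DESeq2 1.42.0, limma-voom, other scalings, pseudocounts and filters, marker covariates, and fewer libraries. Control replicates 1 and 2 were left out together because their sample numbers stand apart. The fit with knockout replicate 3 alone was chosen after seeing the data and assumes that it varies like the controls. Its adjusted p-values are therefore not printed, while its calls still count among the 24 alternatives. Replicates were numbered in accession order, and no pair agreed within sampling noise. The members and gene lists were chosen with earlier results of these data known. Named beside the members were Kdm1a, Ckm, Slc25a4, Slc25a5 and Ak3, the called genes of each list or else its largest fold change, and the 2 genes most like each member. Some items that this rule names are not reported here. R was 4.3.3, Python 3.11.15 and pandas 2.3.3.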

Additional observations from a re-analysis of the deposited data

How the results depend on the processing

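The 24 alternatives moved the 239 calls over all genes to 776 with DESeq2, 105 with a lymphocyte marker covariate, 98 without control replicates 1 and 2, and 17 with replicate 3 as the only knockout library. Leaving out 1 library gave 71 calls (without knockout replicate 4) to 429 calls (without knockout replicate 3). The 3 calls among the members became 1 with the muscle covariate, 1 without control replicates 1 and 2, and 1 to 4 when 1 library was left out. The cause was not tested. Signs turned for Ckmt2 (log2 fold change -0.333), Ckm (-0.574) and Slc25a5 (0.0676) with knockout replicate 3 alone, and for Gamt with the lymphocyte covariate (-0.0605) and without control replicates 1 and 2 (-0.0354). With 1 library left out, Gamt ranged from -0.0192 (without knockout replicate 3) to 0.149, and Ak3 from -0.0183 (without control replicate 3) to 0.0666, with -0.0029 without knockout replicate 3. No scaling shifted the median of all genes by over 0.1 on the log2 scale. No paired analysis was possible because the labels give no replicate numbers shared between genotypes. With 4 libraries a group, and 17 reads or fewer a library for Ckmt1, small differences were not detectable at this depth.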
